A study of Mus musculus with 2 samples.

Results

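The keratins described here are the protein-coding mouse genes whose GENCODE symbol is Krt followed by digits alone. That rule, which uses names and no measured value, took 49 of the 43346 genes in the tables, 26 of them type I and 23 type II. By the epithelium each is known for, 5 were grouped as simple epithelial keratins, 16 as keratins of stratified epithelia, 21 as keratins of the hair follicle and hair shaft, and 7 as other keratins. The tissue was small intestine of 1 C57BL/6J mouse, a female of 10 weeks with no treatment in the labels, and its poly(A) RNA was sequenced. It was sequenced as 2 technical libraries of 1 biological replicate. The library labelled technical replicate 2, here the second library, was made later than technical replicate 1, here the first. With 1 animal there is no measure of spread between mice, and a test between the libraries compares these libraries only.

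Keratins are the intermediate filament proteins of epithelial cells. A filament is built from pairs of an acidic type I chain and a basic type II chain, so a cell needs members of both types, and it takes them from sets that differ between epithelia. Single-layered epithelia such as the gut lining use KRT8 with KRT18, KRT19 and KRT20, epidermis and other layered epithelia use pairs such as KRT5 with KRT14 and KRT1 with KRT10, and the hair shaft uses its own set. In the intestine the filaments lie mainly beneath the brush border and join neighbouring cells at desmosomes.

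Promoter windows are shown for the simple epithelial keratins found in the RefSeq promoter table, since these genes carry nearly all of the keratin RNA, and for Krt5, the type II keratin of basal keratinocytes, which had no count in either library. Of the 49 members, 35 had a window in that table, which covers 250 bases before to 50 bases after each RefSeq start on GRCm38.p6. The windows lie at chr15:102004293-102004592 (minus strand) for Krt8, chr15:102027966-102028265 (plus strand) for Krt18, chr11:99438104-99438403 (minus strand) for Krt20, chr15:101412153-101412452 (plus strand) for Krt7 and chr15:101712856-101713155 (minus strand) for Krt5. Each is written 5′ to 3′ on its gene's strand. Capitals mark matches, on either strand, to any of 4 short motifs. The TATA box was searched as TATAAA. The GC box was searched as GGGCGG, the motif bound by SP1-family factors. The AP-1 site, bound by Fos and Jun proteins, was searched as TGANTCA. The CDX-type site, named for intestinal homeobox factors, was searched as TTTATG.
Krt8: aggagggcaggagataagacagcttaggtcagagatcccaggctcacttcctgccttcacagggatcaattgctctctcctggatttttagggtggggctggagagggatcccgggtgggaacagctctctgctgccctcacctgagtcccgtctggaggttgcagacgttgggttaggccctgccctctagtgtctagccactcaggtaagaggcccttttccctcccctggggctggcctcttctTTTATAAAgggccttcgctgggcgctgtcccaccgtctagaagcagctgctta
Krt18: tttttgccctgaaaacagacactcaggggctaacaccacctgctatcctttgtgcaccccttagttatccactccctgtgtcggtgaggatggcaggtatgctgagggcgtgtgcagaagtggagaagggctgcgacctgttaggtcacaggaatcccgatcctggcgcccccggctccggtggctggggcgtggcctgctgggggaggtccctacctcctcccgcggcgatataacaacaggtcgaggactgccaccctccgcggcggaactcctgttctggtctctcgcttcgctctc
Krt20: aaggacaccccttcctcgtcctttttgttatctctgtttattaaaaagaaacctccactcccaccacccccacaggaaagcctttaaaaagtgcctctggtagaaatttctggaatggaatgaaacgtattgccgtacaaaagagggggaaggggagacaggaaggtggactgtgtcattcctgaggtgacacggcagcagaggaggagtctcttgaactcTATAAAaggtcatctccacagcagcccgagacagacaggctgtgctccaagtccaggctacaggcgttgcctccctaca
Krt7: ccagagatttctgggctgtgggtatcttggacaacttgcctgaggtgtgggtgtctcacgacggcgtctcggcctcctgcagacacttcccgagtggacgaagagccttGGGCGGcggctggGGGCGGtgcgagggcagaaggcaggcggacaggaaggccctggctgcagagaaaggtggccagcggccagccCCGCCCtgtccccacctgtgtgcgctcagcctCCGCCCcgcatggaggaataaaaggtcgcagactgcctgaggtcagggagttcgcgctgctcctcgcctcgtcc
Krt5: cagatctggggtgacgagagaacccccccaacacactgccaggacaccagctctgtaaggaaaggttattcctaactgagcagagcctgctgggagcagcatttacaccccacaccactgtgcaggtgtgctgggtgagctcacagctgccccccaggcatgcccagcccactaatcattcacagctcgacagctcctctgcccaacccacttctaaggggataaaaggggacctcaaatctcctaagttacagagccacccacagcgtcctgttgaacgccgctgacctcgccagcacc
Krt20 held a TATA box at position -29 from the RefSeq start. Krt8 held 2 overlapping TATA matches, on opposite strands, at positions -3 and -1. Krt7 held 4 GC boxes, at positions -141, -128, -56 and -24, and no other of the searched letters. Neither Krt18 nor Krt5 held any of them. Over the 36 windows of the 35 members, 18 held TATAAA, against 13.6% of all 32851 windows in the table. GGGCGG was present in 2 keratin windows (5.56%), against 35.7% of all windows. TTTATG was present in 15 keratin windows (41.7%), against 11.9% of all windows, and TGANTCA in 2 (5.56%), against 7.81%. None of the windows shown above held TTTATG. Among members at 1 TPM or more in either library, those with TTTATG in their window were Krt10, Krt12 and Krt23. These matches describe letters in a window and nothing about binding.

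Levels are given in expected counts, which are estimated reads per gene, and as TPM, which is corrected for transcript length and scaled alike in each library. The libraries held 24509862 expected counts in the second and 28277875 in the first. They stood apart: mitochondrial genes and their nuclear copies took 21.6% of TPM in the second library, against 72.3% in the first. Genes at 1 TPM or more numbered 13571 in the second library, against 9391 in the first. Because RNA came from bulk tissue, fewer cells of a type and less RNA per cell cannot be told apart in any value here.

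The simple epithelial keratins made up nearly all of the family's RNA in both libraries. Their summed level was 3128.81 TPM in the second library and 270.99 TPM in the first, which was 99.7% and 98.8% of all keratin TPM in the second and the first library. The 16 stratified keratins summed to 3.15 TPM in the second library and 1.25 TPM in the first. Hair keratins, 21 genes, summed to 0.17 TPM in the second library and 0.03 TPM in the first. The 7 other keratins summed to 7.41 TPM in the second library and 1.96 TPM in the first, mostly from Krt23 and Krt222. The order of simple, other, stratified and hair was the same in both libraries. The whole family took 0.314% of all TPM in the second library, against 0.0274% in the first. With mitochondrial genes and their copies left out of the total, these shares were 0.400% (second) and 0.0991% (first).

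**Figure D1:**
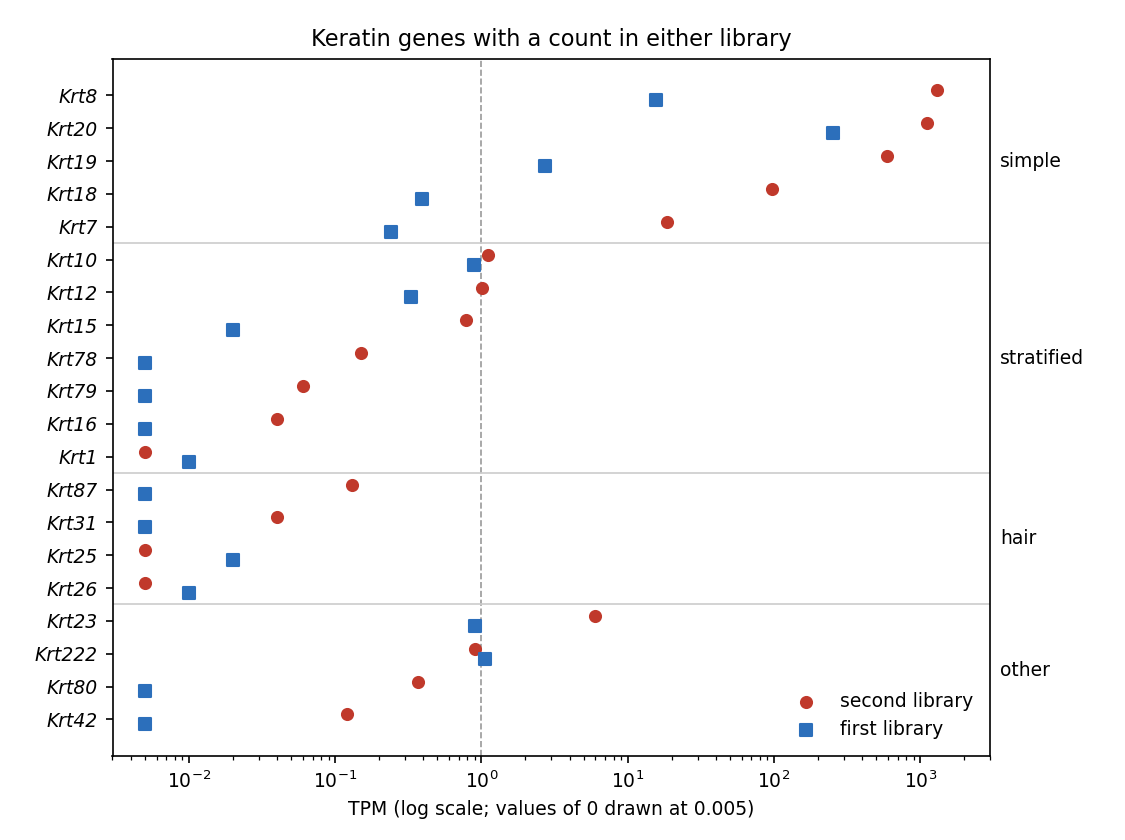
Level of each keratin gene with a count in either library, in TPM on a log axis, grouped by the epithelium the genes are known for; circles are the second library, squares the first, and the dashed line is 1 TPM. The simple keratins Krt8, Krt20 and Krt19 lie above 1 TPM in both libraries, and no hair keratin reaches it in either.

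Of the 49 members, 20 had a count in at least 1 library and 29 had none in either. At 1 TPM or more stood 8 members in the second library, 4 in the first and 3 in both, namely Krt8, Krt20 and Krt19. These counts depend on the mitochondrial share of TPM. With mitochondrial genes and their copies left out of the total, Krt18, Krt23, Krt10, Krt12 and Krt222 also passed 1 TPM in both libraries. Their values were then 123.85, 7.67, 1.42, 1.29 and 1.16 TPM in the second library. In the first library they were 1.41, 3.29, 3.22, 1.19 and 3.79 TPM. Every member's count was a whole number with a posterior SD of 0, so the deposited estimates recorded no sharing of reads between a keratin and another gene in the tables. For the 29 members without a count this could not be otherwise. By comparison, 2042 of the 15194 genes tested below (13.4%) had a posterior SD above 0, and only 9 members are among the genes tested.

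Among the type II simple keratins, Krt8, the chief type II chain of simple epithelia, was far above Krt7. Krt8 (GRCm38, as for the genes that follow, chr15:101996698-102004482, minus strand) had 40047 expected counts and 1306.77 TPM in the second library, against 741 counts and 15.50 TPM in the first. It ranked 69 by TPM among nuclear genes in the second library, against 2780 in the first. The second library was thus the higher one by far, with 741 reads behind the lower value. Krt7 (chr15:101411043-101430313, plus strand), a keratin of ducts and other simple epithelia, had 922 counts and 18.58 TPM in the second library and 15 counts and 0.24 TPM in the first. Only the second library held it above 1 TPM. Krt8 held 98.6% of the type II simple keratin TPM in the second library, against 98.5% in the first.

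Among the type I simple keratins, Krt20 was the highest in both libraries. KRT20 is the type I chain of mature enterocytes and goblet cells. Krt20 (chr11:99428403-99438150, minus strand) had 36605 counts and 1111.16 TPM in the second library and 12964 counts and 252.15 TPM in the first. Its rank by TPM among nuclear genes was 88 in the second library, against 155 in the first, the closest pair of ranks among the 5 simple keratins. Krt19 (chr11:100140810-100148665, minus strand), which encodes a small type I chain that lacks most of the tail, had 12964 counts and 595.21 TPM in the second library and 43 counts and 2.71 TPM in the first. Krt18 (chr15:102028180-102032027, plus strand), the usual partner of Krt8, had 2235 counts and 97.09 TPM in the second library and 14 counts and 0.39 TPM in the first. Both Krt19 and Krt18 therefore rested on few reads in the first library. That Krt20 in the first library and Krt19 in the second library carry the same count, 12964, is as the tables give it.

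The balance of chain types differed between the libraries. In TPM, the ratio of type II to type I simple keratins was 0.735 in the second library (1325.35 TPM of type II, 1803.46 TPM of type I) and 0.0617 in the first (15.74 TPM of type II, 255.25 TPM of type I). Type I exceeded type II in both libraries, and by a wider margin in the first. Krt20 supplied 61.6% of the type I TPM in the second library, against 98.8% in the first. Krt19 supplied 33.0% in the second library, against 1.06% in the first, and Krt18 supplied 5.38% in the second and 0.153% in the first. Krt20 was thus the main type I simple keratin in both libraries. The TPM ratio of Krt8 to Krt20 was 1.18 in the second library, against 0.0615 in the first, so which of the pair was higher depended on the library. By contrast, the TPM ratio of Krt19 to Krt18 was 6.13 in the second library, against 6.95 in the first. In expected counts that ratio was 5.80 in the second library, against 3.07 in the first. Krt8 and Krt20 also differed in GC content, at 57.1% and 49.5%. Their log2 ratios of second over first library, described below, were 5.12 and 0.87. With a GC trend subtracted they were 1.23 and 0.78. The balance of chain types given here was taken without that step.

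**Figure D2:**
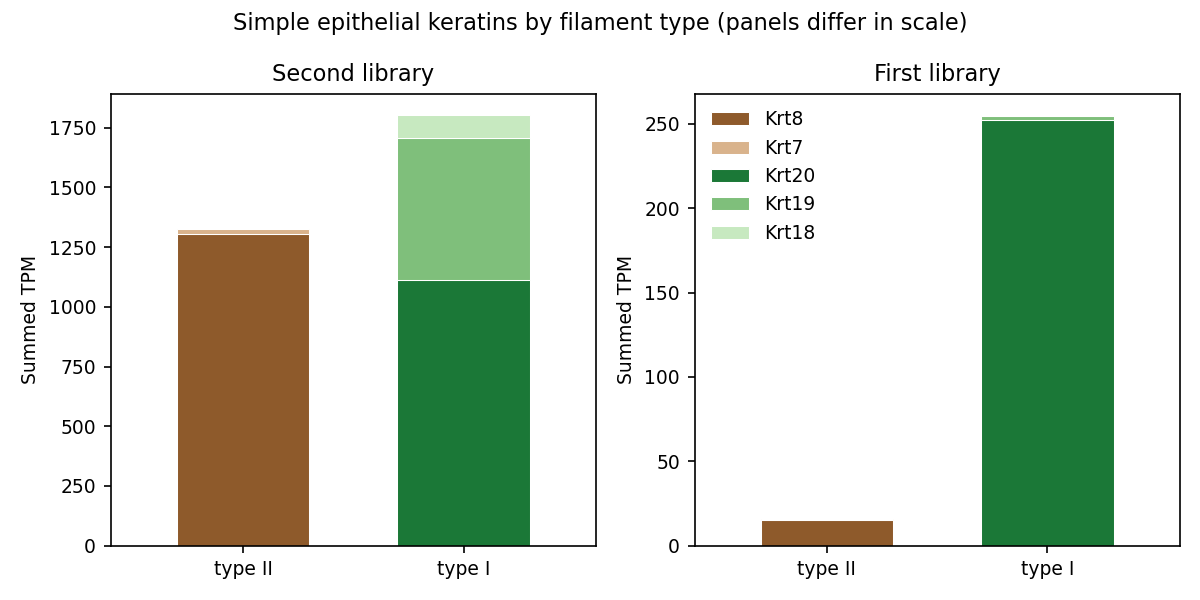
Summed TPM of the simple epithelial keratins by chain type, with type II (Krt8, Krt7) and type I (Krt20, Krt19, Krt18) as stacked bars from 0, the second library on the left and the first on the right, each panel on its own scale. Type I exceeds type II in both, and Krt20 makes up 61.6% of type I in the second library, against 98.8% in the first. No GC trend was subtracted from these values.

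The transcript tables add a limit for Krt19 and Krt7, whose gene TPM depends on which transcript reads were assigned to. For Krt19, the 1576-base protein-coding transcript took 67.9% of the gene's TPM in the second library, against 17.5% in the first. A 546-base processed transcript, not annotated as coding, took 0% in the second library, against 82.4% in the first. Counts do not depend on this split, and they gave the same direction. For Krt7, the 4094-base coding transcript took 49.4% in the second library, against 19.5% in the first, while a transcript with a retained intron took 15.9% in the second and 34.6% in the first. Krt8, Krt18 and Krt20 have 1 transcript each in the tables.

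To set the libraries against each other gene by gene, expected counts were compared with a two-sided exact binomial test after TMM scaling, over the 15194 genes with at least 20 counts in both libraries together. A gene was called where the adjusted p (Benjamini-Hochberg over all tested genes) was under 0.05 and the fold at least 2. Of the 49 members, 9 were tested. Krt8, Krt19, Krt18, Krt7 and Krt23 were called higher in the second library, and Krt222 was called lower. Among all tested genes, 40.2% were called higher in the second library and 27.4% lower, so a call in either direction was common. The median log2 ratio of second over first library was 1.44 over the tested keratins and 0.26 over all tested genes. The test covers counting error only.

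Of the simple keratins, 4 of 5 were called higher in the second library. Log2 ratios, with 95% exact intervals for counting error, were 7.59 for Krt19 (7.17 to 8.07) and 6.64 for Krt18 (5.94 to 7.56). Ratios for Krt7 and Krt8 were 5.26 (4.58 to 6.15) and 5.12 (5.02 to 5.23). Krt20 was higher in the second library by a log2 ratio of 0.87 (0.84 to 0.89), under the 2-fold limit. That interval did not overlap those of the other simple keratins. Scaled by total counts instead, the log2 ratio of Krt20 was 1.70, past the limit.

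Transcript base composition moved with the library ratio across all genes, and the keratins spanned a range of it. GC content was 57.1% for Krt8, 56.9% for Krt7 and 56.4% for both Krt18 and Krt19. It was 49.5% for Krt20 and 44.5% for Krt222, against a median of 50.4% over all tested genes. After a smooth GC trend over tested nuclear genes was subtracted, the log2 ratios were 1.23 for Krt8, 1.49 for Krt7, 3.13 for Krt18, 4.05 for Krt19 and 0.78 for Krt20. The calls of the first 4 genes held. Krt8 and Krt20, which differed by more than 4 log2 units before, lay much nearer to each other. Krt222 had -0.29 and Krt23 had 0.56, and neither was called any longer, while Krt10, at -2.95, and Krt12, at -1.45 (adjusted p = 0.00648, exact binomial test), were called lower in the second library. The sign of Krt12 was thereby turned. Whether base composition itself acts on these values was not tested.

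**Figure D3:**
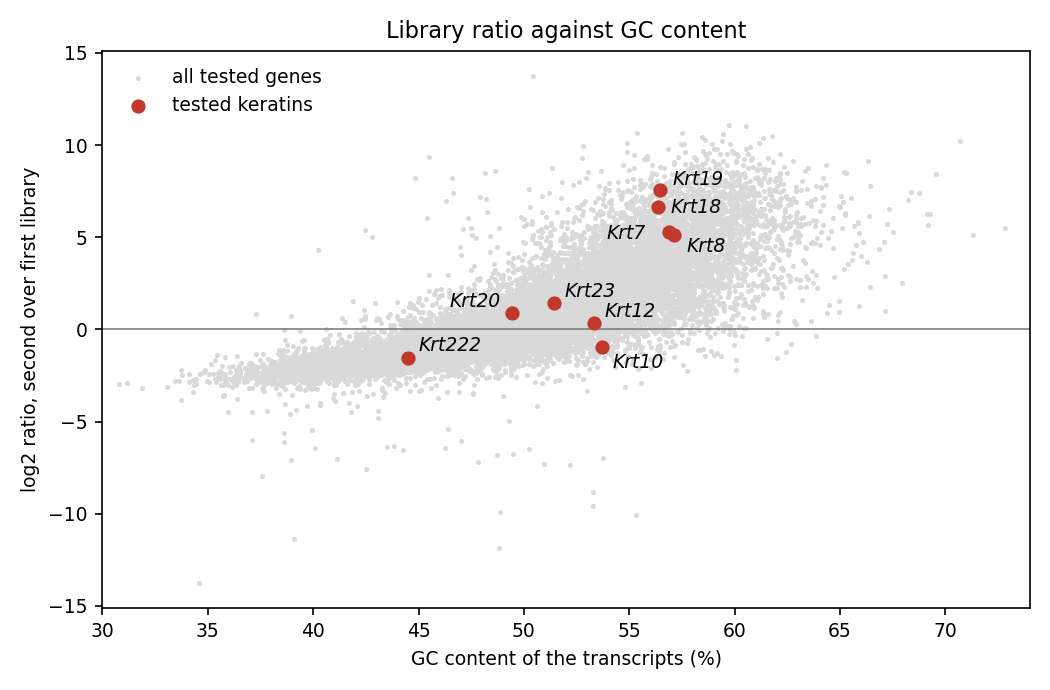
Log2 ratio of TMM-scaled expected counts, second over first library, against the GC content of each gene's transcripts; grey points are all tested genes and red points the 9 tested keratins. The 4 simple keratins near 57% GC have log2 ratios of 5.12 to 7.59, Krt20 at 49.5% GC has 0.87 and Krt222 at 44.5% GC has -1.53.

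The epithelial identity genes, known marks of the gut lining, give a level to read the keratins against. All 15 stood at 1 TPM or more in the second library, against 13 in the first, and of the 15 tested 12 were called higher in the second library and none lower, beside 40.2% and 27.4% of all tested genes called higher and lower. Lgals4, a galectin of enterocytes, had 2279.07 TPM in the second library and 34.30 TPM in the first, and Vil1, villin of the brush border, had 985.38 TPM in the second and 96.31 TPM in the first. Epcam, an adhesion protein of epithelia, had 681.88 TPM in the second library and 265.17 TPM in the first. Cdhr5, a brush border cadherin, had 666.99 TPM in the second and 40.48 TPM in the first. All 4 had more TPM in the second library. On TMM-scaled counts the log2 ratios were 5.27 for Lgals4, 2.11 for Vil1 and 2.96 for Cdhr5. For Epcam it was 0.09, and Epcam was not called. With the GC trend subtracted, their log2 ratios were 3.51 for Lgals4, -0.25 for Vil1, -1.40 for Epcam and -0.31 for Cdhr5. The calls above were made without that step. Relative to Epcam, Krt20 stood at 1.63 in the second library, against 0.951 in the first as a TPM ratio. Relative to Cdh1, E-cadherin, its TPM ratio was 6.89 (second) and 3.27 (first). The direction turned with the marker, since the TPM ratio of Krt20 to Vil1 was 1.13 (second) and 2.62 (first), and that to Cldn7, a claudin, was 2.05 (second) and 6.61 (first). On counts with the GC trend subtracted, the direction did not turn. The log2 ratio of Krt20 was then 0.78, above Vil1 (-0.25), Epcam (-1.40), Cldn7 (-1.64) and Cdh1 (-2.16). Krt8 and Krt19 were higher in the second library relative to each of these 4 markers. Relative to Epcam, Krt8 stood at 1.92 in the second and 0.0585 in the first, and Krt19 at 0.873 in the second and 0.0102 in the first. In the first library Krt20 was the 1 simple keratin near the level of Epcam. Goblet cell markers, 8 genes, summed to 12294 TPM in the second library and 491.13 TPM in the first.

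Pancreatic genes were also abundant in both libraries. All 14 acinar markers were at 1 TPM or more in both, with a sum of 17027 TPM in the second library and 2731.33 TPM in the first. Cela2a, an elastase, had 3441.19 TPM in the second library and 136.80 TPM in the first, while Amy2a5, an amylase, had 1821.38 TPM in the second and 1354.80 TPM in the first. Of the 14, 10 were called higher in the second library and 1 lower, where all tested genes gave 40.2% higher and 27.4% lower. Pancreatic acinar cells also use Krt8 and Krt18, and duct cells Krt7 and Krt19. The 12 duct markers summed to 273.45 TPM in the second library and 83.72 TPM in the first, from 10 and 9 genes at 1 TPM or more in the second and the first. Highest were Aqp1 (115.34 TPM second, 2.80 first), Tff2 (81.11 and 3.08), Cftr (20.49 and 31.93) and Ehf (22.29 and 22.99). Lowest were Pkhd1, with 13 counts in each library, and Onecut1, with 1 in each. Whether the RNA of this list came from duct cells was not tested. Of the 11 duct markers tested, 4 were called higher in the second library, near the 40.2% of all tested genes, and 5 lower, against 27.4% of all. Mesothelium markers, another tissue with Krt7, Krt8, Krt18 and Krt19, summed to 87.68 TPM in the second library and 20.08 TPM in the first over 11 genes, mostly from Prr15. Prr15 alone had 75.94 TPM in the second library and 15.03 TPM in the first, and its source among mesothelium and other cells was not tested. Msln, a defining gene of that tissue, had 0.96 TPM in the second library and no count in the first. Upk1b had 2.97 TPM in the second library and 2.23 TPM in the first. Gpm6a (50 counts second, 191 first) and Lrrn4 (27 and 43) were called lower in the second library. Of the 9 mesothelium markers tested, 5 were called higher in the second library and 2 lower, against 40.2% and 27.4% of all tested genes. The part of these cells in the keratin levels was not tested.

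Among stratified keratins, Krt10, Krt12 and Krt15 held nearly all of the RNA. Krt10, the suprabasal keratin of epidermis, had 40 counts and 1.11 TPM in the second library and 50 counts and 0.89 TPM in the first. Krt12, the type I keratin of the cornea, had 32 counts and 1.01 TPM in the second library and 16 counts and 0.33 TPM in the first. Krt15, a keratin of basal cells in layered epithelia, had 17 counts and 0.78 TPM in the second library and 1 count and 0.02 TPM in the first. These are levels near 1 TPM at most. Krt10 had a log2 ratio of -0.95 (-1.59 to -0.33; adjusted p = 0.00299, exact binomial test) and Krt12 one of 0.35 (-0.54 to 1.33; adjusted p = 0.520, exact binomial test). Neither passed the 2-fold limit, and Krt15 was not tested for want of counts. Krt10's direction changed with the measure, since its TPM was slightly higher in the second library. With mitochondrial genes and their copies left out of the total, its TPM was 1.42 (second) and 3.22 (first), again lower in the second.

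Among the remaining stratified keratins, Krt78 had 9 counts, Krt79 2 and Krt16 1 in the second library, with no count in the first, and Krt1 had 1 count in the first library and none in the second. Neither Krt5 nor Krt14, the basal pair, had a count in either library. The same held for Krt2, Krt4, Krt9, Krt13, Krt17, Krt76 and Krt77. In all, 9 of 16 stratified keratins were at 0 in both. A count of 0 in the second library allowed at most 0.0579 to 0.257 TPM for them, taking 3 counts as the limit.

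Markers of squamous epithelium other than keratins were also scarce. Of 14, 10 had no count in either library: Calm4, Csta1, Flg, Flg2, Ivl, Krtdap, Lypd3, Rptn, Sprr1b and Sprr3. Sbsn, a keratinocyte secreted protein, had 70 counts and 3.46 TPM in the second library and 3 counts and 0.04 TPM in the first. Dmkn had 18 counts in the second library, against 1 in the first. Trp63, the regulator of basal cells, had 1 count in the second library, against 2 in the first. The summed level of the list was 4.39 TPM in the second library and 0.10 TPM in the first, and Krt10, Krt12 and Krt15 were low in both libraries as well. The part of squamous cells in those values was not tested.

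Hair keratins showed 4 genes with a count out of 21. Krt87 had 4 counts and Krt31 had 1 in the second library, with none in the first, and Krt25 and Krt26 had 1 each in the first library and none in the second. The other 17 had no count in either library: Krt27, Krt28, Krt32, Krt34, Krt35, Krt36, Krt39, Krt40, Krt71, Krt72, Krt73, Krt75, Krt81, Krt82, Krt83, Krt84 and Krt86. Limits at 3 counts ran from 0.0516 to 0.156 TPM for these genes in the second library. Hair follicle markers likewise were at 0 in 9 of 12 genes, and their sum was 0.15 TPM in the second library and 0.02 TPM in the first. Of 57 keratin-associated protein genes, the partners of hair keratins, 54 had no count in either library. Krtap28-13 and Krtap5-5 had 3 counts each and Krtap5-3 had 1, all in the second library.

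Among other keratins, Krt23, a type I keratin, had 157 counts and 6.01 TPM in the second library and 37 counts and 0.91 TPM in the first. Its log2 ratio was 1.44 (0.93 to 2.01; adjusted p = 3.94e-09, exact binomial test), a call lost with the GC trend removed. Krt222, a keratin-like gene at the edge of the type I cluster, had 39 counts and 0.91 TPM in the second library and 73 counts and 1.05 TPM in the first. Its log2 ratio was -1.53 (-2.14 to -0.96; adjusted p = 7.26e-08, exact binomial test), the lone call lower in the second library. That call was lost with total counts (-0.69) and with the GC trend removed (-0.29; adjusted p = 0.411, exact binomial test), and the log2 ratio was -0.10 on TPM with a pseudocount of 1. With mitochondrial genes and their copies left out of the total, the TPM of Krt222 was 1.16 (second) and 3.79 (first). Krt80 had 11 counts and Krt42 2 in the second library, with none in the first. Krt24, Krt88 and Krt90 had no count in either library. Krt6a, Krt6b, Krt33a and Krt33b, whose names carry a letter and so fall outside the rule, had no count either.

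Abundant keratins lay next to keratins with few or no counts. The keratins lie in 2 clusters, 27 genes over 1037 kb on chromosome 11 and 27 genes over 685 kb on chromosome 15, counting the genes with a letter in their name and Krt74. Krt20 lies 6.14 kb from Krt12 and 39.8 kb from Krt23, and Krt19 lies 4.88 kb from Krt15. Krt8 and Krt18, the chromosome 15 pair of opposite types, are 23.7 kb apart. Neighbours could differ by several orders of magnitude in TPM. In the second library, Krt20 had 1111.16 TPM beside 1.01 TPM for Krt12.

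**Figure D4:**
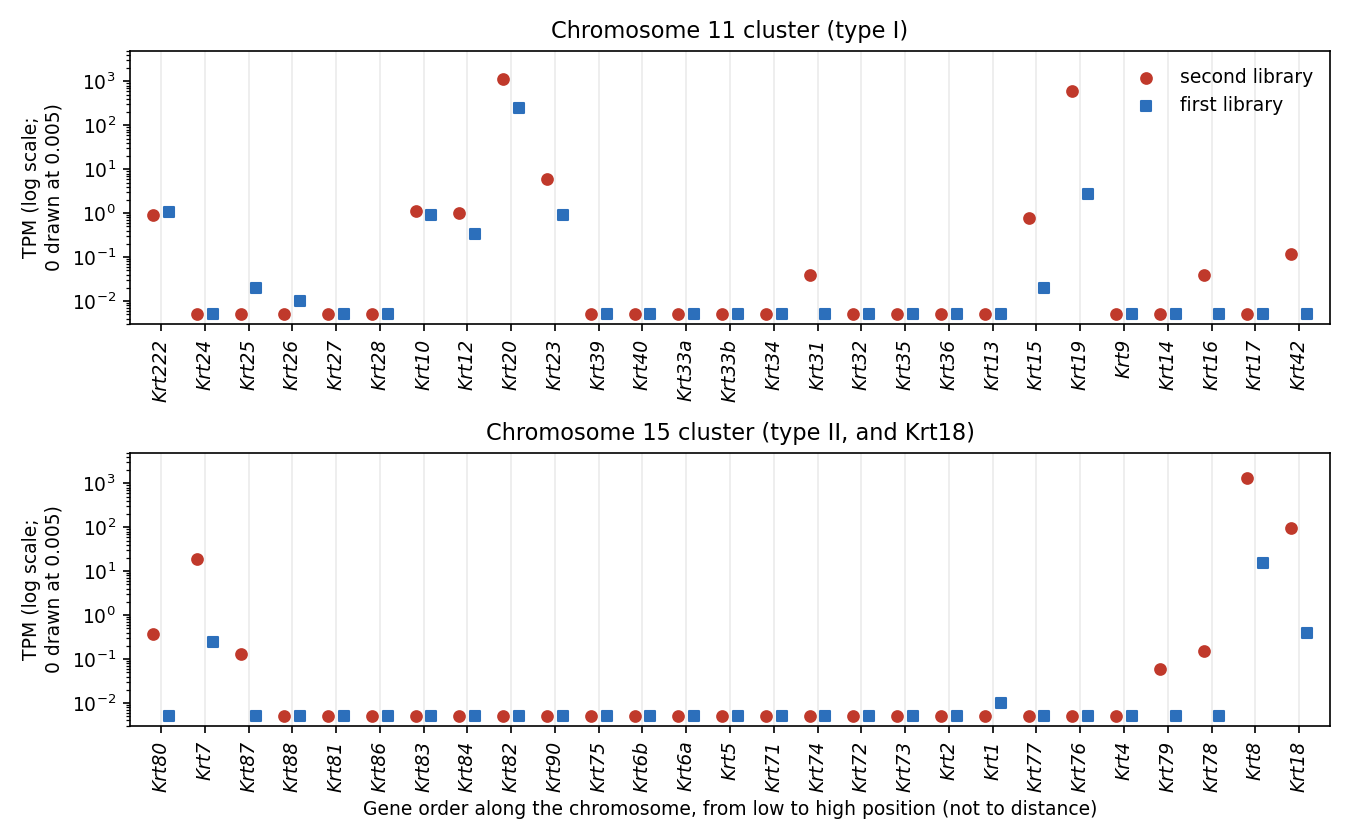
TPM of each keratin gene in chromosomal order on a log axis, chromosome 11 above and chromosome 15 below; circles are the second library, squares the first, and genes at 0 are drawn at 0.005. Krt20 and Krt19 stand out on chromosome 11 and Krt8 and Krt18 at the end of chromosome 15, with runs of genes at 0 between.

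Genes with similar sequence could draw reads from keratins. Such genes were sought for Krt7, Krt8, Krt18, Krt19, Krt20 and Krt23 only, and the other members were not searched. The closest match among transcripts was Krt8-ps, which shared 98.6% identity with Krt8 over 941 bases and was not analysed here. Gm5200 (90.2% over 1269 bases) and Gm7943 (83.1% over 971 bases), both similar to Krt18, were also not analysed here. Gm17847, 86.4% identical to Krt18 over 1065 bases, had no count in either library. A posterior SD of 0 for Krt8 is therefore no check against its near-identical copy.

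Other intermediate filament genes and keratin partners give the setting. Of 16 non-keratin intermediate filament genes, 13 were tested, with 6 called higher in the second library, near the 40.2% of all tested genes, and 1 lower, against 27.4% of all. Desmin (Des), of muscle, had 75.38 TPM in the second library and 0.27 TPM in the first, vimentin (Vim), of mesenchymal cells, 52.11 TPM in the second and 16.30 TPM in the first. Lamin A (Lmna) had 30.61 TPM in the second library and 0.92 TPM in the first, and Lmnb1 had 18.19 TPM in the second and 11.17 TPM in the first. Vimentin and Lmnb1 were not called.

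Of 15 linkers and partners of keratin filaments, 9 were called higher in the second library and 2 lower, set against 40.2% higher and 27.4% lower over all tested genes. Hspa8, a chaperone that binds keratins, had 872.63 TPM in the second library and 247.10 TPM in the first. Ywhaz, a 14-3-3 protein, had 141.56 TPM in the second and 129.83 TPM in the first, yet on scaled counts it was called lower in the second, with a log2 ratio of -1.12. Of desmosome genes, Jup had 91.64 TPM in the second library and 0.82 TPM in the first, while Dsp, desmoplakin, had 54.79 TPM in the second and 20.41 TPM in the first. Jup was called higher and Dsp was not called. Median log2 ratios were 2.09 for this list and 0.41 for the filament list, against 0.26 over all tested genes. Median GC content of the tested genes was 54.4% and 55.5% for these lists, against 50.4% over all. With the GC trend subtracted, log2 ratios were 0.24 for Hspa8, -1.36 for Ywhaz, 2.57 for Jup and -0.51 for Dsp. They were 5.89 for Des, -2.44 for Vim, -1.69 for Lmna and -1.99 for Lmnb1. The calls and medians of both lists were made without that step.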

How the data were processed

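RNA-seq gene and transcript tables of 2 technical libraries from 1 mouse were used. Expected counts, TPM and isoform percent were deposited per gene or transcript by the authors in the RSEM format, per the file headers, on mm10 with GENCODE M4. Neither aligner nor quantifier version is named in the sources used here. Symbols came from GENCODE M21 by Ensembl ID, matching 42462 of 43346 genes. The keratin members, classes and lists were chosen with earlier results of these data known. Every member at 1 TPM or more in either library, and every simple keratin, is named with both values, and members at 0 in both are named. Of each other list, up to 4 genes of highest mean TPM were named, with others where a list is described. Expected counts were rounded and compared by a two-sided exact binomial test in scipy 1.17.1, with TMM sizes from edgeR 4.0.16. The edgeR quasi-likelihood test could not be fitted without residual degrees of freedom. Log2 ratios carry a prior count of 0.5 per library. The GC trend was a lowess fit with a span of 0.3. Similar transcripts were sought by BLAST 2.17.0 (identity of 80% and 500 aligned bases, as minimums), for Krt7, Krt8, Krt18, Krt19, Krt20 and Krt23 only. Alternatives were DESeq2 1.42.0 size factors, total counts, no filter on low counts, other detection limits, TPM pseudocounts of 1 and 0.1, and each library alone. RefSeq promoter sequences are those of GRCm38.p6. Depth sets the limits: 3 counts were 0.122 CPM in the second library, against 0.106 CPM in the first.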

Additional observations from a re-analysis of the deposited data

How the results depend on the processing

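Over the 9 tested keratins and 7 alternatives, 49 of 63 log2 ratios kept their direction and their side of the threshold. Of the keratins called higher in the second library, the count was 5, and it was 8 with no filter on low counts, the added genes being ones with few reads. It was 7 with total counts, 6 with no 2-fold limit and 4 with the GC trend removed. Krt12 was called higher with total counts (log2 ratio 1.18; adjusted p = 0.009, exact binomial test) and lower with the GC trend removed. The 1 call lower in the second library, Krt222, was lost with total counts (0 calls) and with the GC trend removed, where the calls were 2 different genes, Krt10 and Krt12. With no 2-fold limit the calls lower were 2, Krt222 and Krt10. Members at 1 TPM or more in both libraries numbered 3, with mitochondrial genes kept in the total. They numbered 9 at 0.1 TPM and 9 at 10 expected counts. With 1 library alone the count was 8 in the second library (first left out) and 4 in the first library (second left out). The share of simple keratins in keratin TPM ranged from 98.8% to 99.7%, the keratin share of all TPM from 0.0274% to 0.314%, and the type II to type I ratio from 0.0617 to 0.735. Log2 ratios that changed sign were those of Krt12 with the GC trend removed (-1.45) and of Krt10 on the TPM scale (0.16 with a pseudocount of 1 and 0.29 with 0.1). With mitochondrial genes and their copies left out of the total, the TPM of Krt10 was 1.42 (second) and 3.22 (first). The cause of these sign changes was not tested. No paired analysis was possible because there is 1 group. Depth limits the hair and most stratified keratins, which rest on 0 to 17 counts in either library.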
